A study of Mus musculus with 19 samples.

Results

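T cells carry a receptor for antigen, and 31 genes that build this receptor, transmit its signal or mark the T lineage were followed here in mouse bone marrow. They were taken by symbol from the deposited table of normalized counts, in which all 31 were found among 34432 genes. Of these, 30 reached the mean of 10 normalized counts that was required for a test, as did 13976 genes in all. Ctla4, an inhibitory receptor of activated T cells, fell short with a mean of 8.92.

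Marrow RNA came from 8-week-old C57/BL6 mice of 5 genotypes. WT (n = 3) carried no engineered allele named in the labels. VAV (n = 4) carried the iVavCre transgene alone, in which the Vav promoter drives Cre recombinase in blood cells. CDK8KO (n = 4) joined that transgene to floxed Cdk8, CDK19KO (n = 4) was null for Cdk19 without Cre, and DKO (n = 4) combined Vav-iCre, floxed Cdk8 and the Cdk19 null allele. CDK8 and CDK19 are paralogous kinases of the Mediator complex, which couples transcription factors to RNA polymerase II. VAV was the control for CDK8KO and DKO, and WT for CDK19KO. Whether each library came from its own animal is not stated in the labels, so the p-values describe the spread between libraries, part of which may be technical.

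In an alpha-beta T cell, the antigen receptor chains sit in a complex with the CD3 chains and CD247. CD4 or CD8 binds the presenting MHC molecule and brings the kinase LCK, after which ZAP70 and the adaptor LAT pass the signal on. Marrow produces the progenitors that seed the thymus, while the mature T cells found in it have mostly returned there from the blood. In bulk marrow, a lower count may come from fewer T cells or from less RNA per T cell, and these cannot be told apart.

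Libraries held 14881701 to 33010241 reads assigned to genes. Cdk19 stood at 1025 to 1202 normalized counts in CDK19KO and DKO and at 2710 to 4304 elsewhere. Cdk8, counted over the whole gene, was 742 to 881 in DKO, 789 to 1315 in VAV and 692 to 1298 in CDK8KO. These ranges overlapped, so this count separated neither DKO nor CDK8KO from VAV. CDK19KO replicate 4 and DKO replicate 4 were rich in skeletal muscle RNA, and CDK8KO replicate 1 and VAV replicate 3 in erythroid RNA. The 6 genes that define T cells (Cd3d, Cd3e, Cd3g, Trac, Trbc1 and Trbc2) were detected in every library.

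The upstream sequences of 4 members are shown because Cd8a is the member that passed in DKO against VAV, CDK8KO and CDK19KO alike, and the CD3 genes define the lineage. RefSeq (GRCm38.p6) gave promoters for 17 of the 31 members, and the 250 bases before each RefSeq start are printed 5′ to 3′ on the gene's own strand. Cd8a (chr6:71373177-71373426) is read on the plus strand. Cd3e (chr9:45009612-45009861), on the minus strand, Cd3d (chr9:44981536-44981785), on the plus strand, and Cd3g (chr9:44980432-44980681), on the minus strand, are neighbours, and the starts of Cd3g and Cd3d lie 1355 bases apart in opposite directions. Capitals mark matches, on either strand, to 5 short motifs of factors active in T cells. The RUNX motif was searched as TGTGGT, and the ETS motif as AGGAAG. The TCF/LEF motif was searched as CTTTGA, while the E-box was searched as CAGNTG. The GATA motif was searched as AGATAA.
Cd8a: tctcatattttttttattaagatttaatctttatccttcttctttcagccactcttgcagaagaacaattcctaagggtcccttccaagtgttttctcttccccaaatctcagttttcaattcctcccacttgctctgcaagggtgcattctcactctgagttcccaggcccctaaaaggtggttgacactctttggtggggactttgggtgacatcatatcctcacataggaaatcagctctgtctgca
Cd3e: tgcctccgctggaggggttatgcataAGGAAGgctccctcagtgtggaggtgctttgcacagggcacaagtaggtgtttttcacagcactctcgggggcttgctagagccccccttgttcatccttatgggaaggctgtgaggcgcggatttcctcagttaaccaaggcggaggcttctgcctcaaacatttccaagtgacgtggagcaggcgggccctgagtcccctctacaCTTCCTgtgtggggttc
Cd3d: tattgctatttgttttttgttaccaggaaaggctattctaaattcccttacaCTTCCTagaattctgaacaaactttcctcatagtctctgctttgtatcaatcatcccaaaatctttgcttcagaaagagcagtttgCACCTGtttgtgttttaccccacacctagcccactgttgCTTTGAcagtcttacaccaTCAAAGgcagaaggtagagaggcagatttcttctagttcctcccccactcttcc
Cd3g: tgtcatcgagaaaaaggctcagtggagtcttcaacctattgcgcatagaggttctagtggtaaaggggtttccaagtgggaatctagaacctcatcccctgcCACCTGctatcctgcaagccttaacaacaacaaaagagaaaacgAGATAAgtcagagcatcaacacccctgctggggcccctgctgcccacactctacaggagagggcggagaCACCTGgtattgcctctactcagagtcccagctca
The Cd8a window held none of these letters, Cd3e held 2 ETS matches, Cd3d held 1 ETS, 2 TCF/LEF and 1 E-box match, and Cd3g held 2 E-box matches and 1 GATA match. None of the 4 windows held the RUNX letters. Over 32851 RefSeq windows of the same length, the ETS letters occurred in 29.5%, the E-box in 44.8%, the RUNX letters in 14.0%, TCF/LEF in 13.8% and GATA in 9.99%. Among the 17 members with a window, 10 held the ETS letters in at least 1 window, 12 the E-box, 5 TCF/LEF, 3 RUNX and 2 GATA. Some members have several windows, so these counts of genes are not the same measure as the shares of windows above. Of the 26 windows of members, 12 held the ETS letters, 13 the E-box, 5 TCF/LEF, 3 RUNX and 2 GATA. For Cd3e the GENCODE gene given below begins upstream of the RefSeq start, so the last bases of its window lie inside that gene. These matches are letters in a window and not measured binding.

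The T cell genes were expressed at modest levels. Per kilobase of exon and averaged over the 19 libraries, Trbc2, a constant gene of the receptor beta chain, was highest at 272 normalized counts, followed by Cd2 (195), an adhesion receptor, and Trac (158), the constant gene of the alpha chain. Ctla4 was lowest at 3.83, next to Cd5 at 5.09 and Cd6 at 7.28, which encode a pair of related surface receptors that tune T cell signalling. Trbc1 and Trbc2 lie side by side on chromosome 6 and share sequence: 23.1% of the 150-base windows and 54.0% of the 31-base windows of Trbc1 transcripts occur unchanged in Trbc2. How reads were shared between these genes is uncertain, so their separate levels are too.

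Within DKO, the 4 libraries split. Summed over the 6 defining genes, the normalized count was 494 in DKO replicate 1 and 1461, 1547 and 1802 in replicates 2, 3 and 4. The sums were 1202, 460 and 794 in WT, 514, 664, 719 and 511 in VAV, 488, 598, 1252 and 836 in CDK8KO, and 538, 535, 461 and 643 in CDK19KO. Thus 3 DKO libraries lay above every other library, while the fourth lay within the CDK19KO range, below every VAV library and below the others of its own genotype. WT replicate 1 and CDK8KO replicate 3 were the highest outside DKO.

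**Figure D1:**
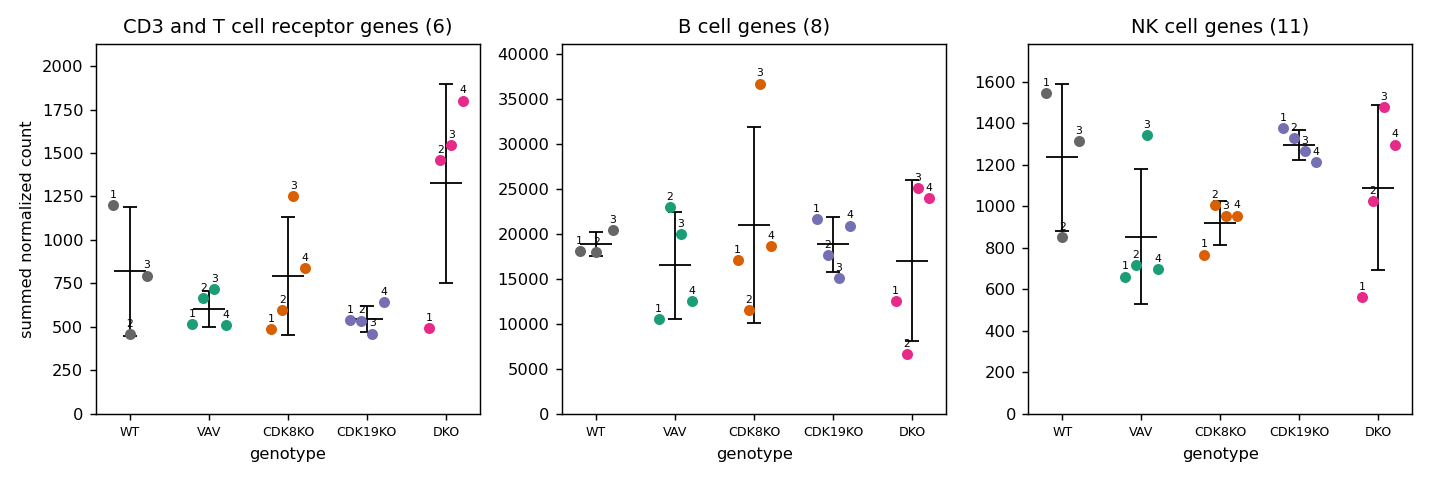
Summed normalized counts (vertical axes, from 0) of 6 CD3 and T cell receptor genes, 8 B cell genes and 11 natural killer (NK) cell genes by genotype. Each point is a library with its replicate number, the long bar is the mean and the error bar the SD. For the T cell genes, DKO replicates 2 to 4 sit between 1461 and 1802 and DKO replicate 1 at 494. DKO replicate 2 has the lowest B cell sum, 6585.

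The same split ran through the single genes. For each library, the difference from the mean of the 7 WT and VAV libraries was taken on the log2(normalized count + 1) scale, and its median over the 30 tested members was -0.38 in DKO replicate 1 and 0.857, 0.996 and 1.14 in replicates 2, 3 and 4. DKO replicate 1 had the lowest value of its genotype for 26 of the 30 members. The median was 0.69 in WT replicate 1 and 0.80 in CDK8KO replicate 3, and it lay between -0.37 and 0.33 in the remaining 13 libraries. The same median over all 13976 genes stayed within 0.01 of 0 in each library. Within WT, replicate 2 was lowest for 27 members and replicate 1 highest for 25. The 4 CDK19KO libraries lay closest together, at -0.03, -0.05, -0.22 and 0.00.

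**Figure D2:**
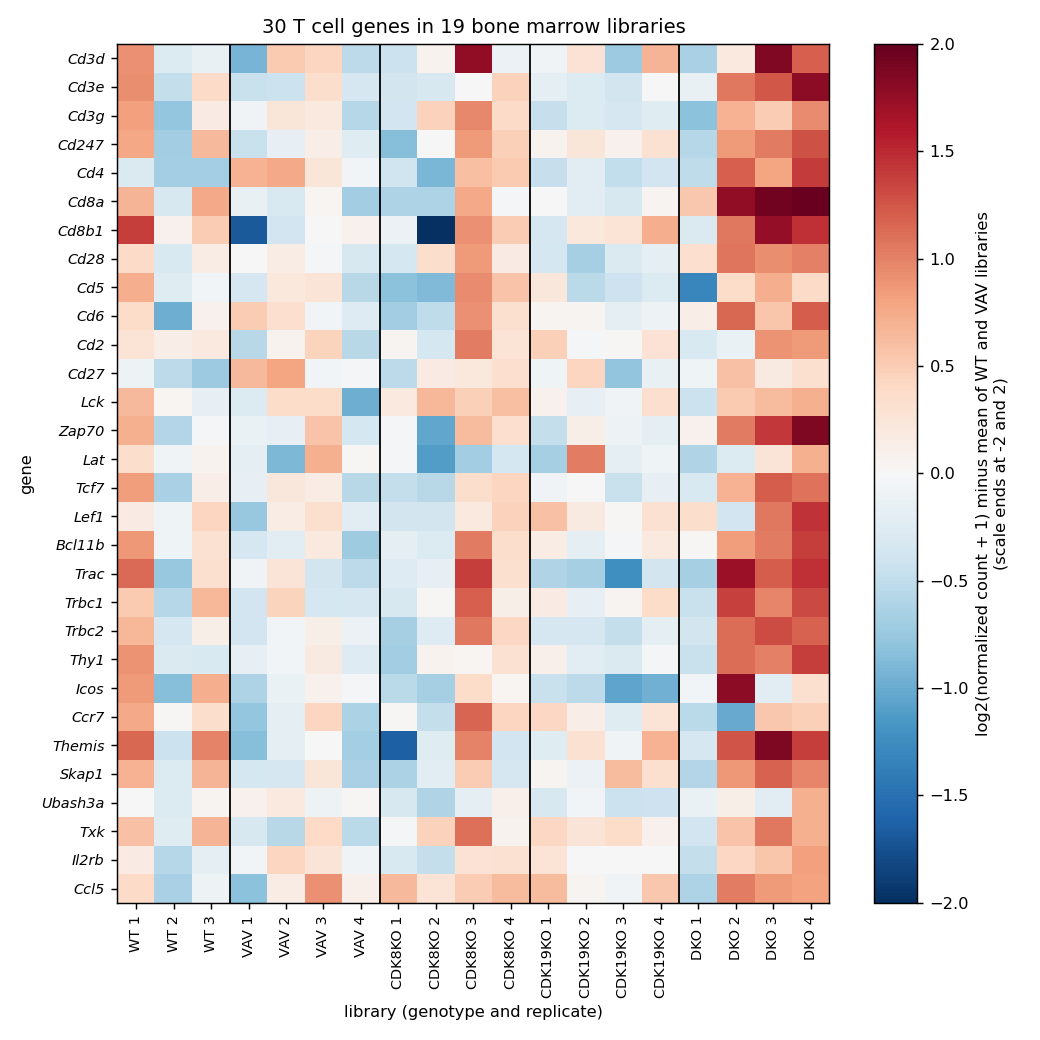
Levels of the 30 tested T cell genes (rows) in the 19 libraries (columns, grouped by genotype). Colour gives log2(normalized count + 1) minus the mean of the 7 WT and VAV libraries, red for higher and blue for lower. DKO replicates 2, 3 and 4 are red for 26, 28 and 30 genes, and DKO replicate 1 for 6.

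Among the chains of the receptor complex, values are given below in order of replicate number. Cd3e, a CD3 chain, read 424, 160 and 290 in WT, 163, 165, 283 and 175 in VAV, 172, 177, 220 and 306 in CDK8KO, 193, 184, 171 and 223 in CDK19KO and 200, 463, 527 and 769 in DKO (chr9:44998740-45009627). Each of DKO replicates 2 to 4 exceeded every library of the other genotypes, and DKO replicate 1 lay inside their range. Cd3d, the delta chain, read 95.3, 41.2 and 44.8 in WT, 25.9, 72.2, 68 and 34.4 in VAV, 37, 52.4, 173 and 46 in CDK8KO, 47.6, 61.2, 30 and 80.3 in CDK19KO and 31.5, 57.1, 183 and 115 in DKO (chr9:44981786-44987339). DKO replicate 3 and CDK8KO replicate 3 were highest, and the groups overlapped. Cd3g, the gamma chain, read 114, 37.2 and 71.6 in WT, 60.6, 75.8, 73.2 and 42.8 in VAV, 48.9, 88.6, 126 and 83.6 in CDK8KO, 46.3, 52.7, 50.6 and 53.9 in CDK19KO and 35.7, 104, 91.6 and 124 in DKO (chr9:44969572-44980431). Here CDK8KO replicate 3 exceeded every DKO library, and DKO replicate 1 was the lowest library of all. The signalling chain Cd247, which NK cells also express, read 85.9, 30.6 and 79.3 in WT, 36.6, 44.5, 54.9 and 42 in VAV, 27.2, 49.9, 90.8 and 70.1 in CDK8KO, 52.4, 59.5, 53.4 and 62 in CDK19KO and 33.2, 90.9, 104 and 123 in DKO (chr1:165788681-165877277). DKO replicates 3 and 4 exceeded all other libraries, replicate 2 stood level with CDK8KO replicate 3, and DKO replicate 1 was the lowest of its genotype.

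The antigen-binding chains are represented by their constant genes. Trac read 250, 66.5 and 142 in WT, 108, 136, 88 and 78 in VAV, 94.6, 101, 297 and 141 in CDK8KO, 74.4, 71.4, 47.8 and 87.2 in CDK19KO and 71.4, 372, 264 and 315 in DKO (chr14:54220521-54224206). DKO replicates 2 and 4 were the highest libraries, DKO replicate 3 lay below CDK8KO replicate 3, and DKO replicate 1 lay with CDK19KO. Trbc1 read 69.6, 31.9 and 76.7 in WT, 36.6, 65.6, 37.5 and 37.8 in VAV, 38, 48.7, 111 and 52 in CDK8KO, 53.7, 42.5, 49.6 and 62 in CDK19KO and 34.9, 126, 95.8 and 121 in DKO (chr6:41538218-41539881). Trbc2 read 248, 124 and 169 in WT, 120, 150, 169 and 143 in VAV, 97.8, 130, 326 and 207 in CDK8KO, 123, 124, 111 and 137 in CDK19KO and 120, 339, 385 and 357 in DKO (chr6:41546730-41548352). For Trbc2, DKO replicates 2 to 4 exceeded all other libraries, while for Trbc1 CDK8KO replicate 3 lay above DKO replicate 3.

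The co-receptors differed from each other. Cd8a encodes the CD8 alpha chain, found on cytotoxic T cells and, in mice, on part of the dendritic cells. Cd8a read 228, 114 and 240 in WT, 128, 114, 146 and 87.3 in VAV, 92.4, 92.4, 242 and 139 in CDK8KO, 143, 121, 114 and 148 in CDK19KO and 207, 487, 542 and 564 in DKO (chr6:71373427-71379173). All 4 DKO libraries exceeded every VAV and CDK19KO library, and DKO replicate 1 overlapped WT and CDK8KO. Its group means were 194 ± 69.6 (SD, n = 3) in WT, 119 ± 24.9 (SD, n = 4) in VAV, 141 ± 70.5 in CDK8KO, 132 ± 16.3 in CDK19KO and 450 ± 165 in DKO. Cd8b1, the beta chain and more restricted to T cells, read 119, 47.9 and 63.9 in WT, 13.4, 34.3, 44.4 and 47.8 in VAV, 41.3, 6.24, 85.4 and 64 in CDK8KO, 35.4, 51.8, 54.3 and 74.6 in CDK19KO and 36.5, 94.4, 154 and 126 in DKO (chr6:71322788-71337494). For Cd8b1, DKO replicate 1 lay among the VAV libraries, and DKO replicates 3 and 4 were the highest of all. The ratio of Cd8a to Cd8b1 per kilobase was 2.31, 2.11, 1.44 and 1.83 in DKO and ranged from 0.744 to 6.03 in the other libraries. The highest of these, 6.03 in CDK8KO replicate 2 and 3.91 in VAV replicate 1, rested on 5 and 15 Cd8b1 reads. The next outside DKO was 1.65, in CDK19KO replicate 1. Cd4, the co-receptor of helper T cells that some dendritic cells and progenitors also carry, read 287, 218 and 219 in WT, 569, 590, 411 and 336 in VAV, 264, 186, 530 and 500 in CDK8KO, 255, 302, 249 and 267 in CDK19KO and 246, 800, 605 and 922 in DKO (chr6:124864692-124888221). DKO replicates 2 to 4 were the highest libraries, and DKO replicate 1 lay with WT and CDK19KO.

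Co-stimulatory and accessory receptors came next. CD28 gives the second signal for T cell activation, and Cd28 read 235, 145 and 199 in WT, 178, 200, 176 and 143 in VAV, 141, 230, 324 and 201 in CDK8KO, 140, 113, 147 and 158 in CDK19KO and 227, 377, 343 and 364 in DKO (chr1:60716800-60773359). All 4 DKO libraries exceeded every VAV and CDK19KO library, but WT replicate 1 and CDK8KO replicates 2 and 3 stood within the DKO range. Icos, a related receptor of activated helper cells, read 58.4, 17.3 and 53.7 in WT, 20.5, 29.2, 34 and 31 in VAV, 21.7, 20, 41.6 and 33.2 in CDK8KO, 23.2, 22.1, 15 and 16.1 in CDK19KO and 30.7, 113, 27.4 and 40.5 in DKO (chr1:60977927-61000320). A single library, DKO replicate 2, was far above the rest. Cd27, a receptor of the TNF receptor family that T, NK and progenitor cells carry, read 129, 95.7 and 83.1 in WT, 218, 241, 133 and 136 in VAV, 95.6, 155, 161 and 175 in CDK8KO, 130, 187, 79.6 and 125 in CDK19KO and 130, 209, 157 and 172 in DKO (chr6:125232622-125237010). DKO lay within the VAV range for Cd27, apart from replicate 1 below it, and every VAV library exceeded every WT library. Cd2 ranged from 234 to 542 in DKO and 195 to 591 elsewhere, Cd5 from 9.13 to 40.0 and 12.5 to 47.1, and Cd6 from 53.1 to 112 and 23.9 to 91.9. Ctla4 read 1.78, 5.83, 3.49 and 0.839 in VAV, 11.6, 16.4, 6.32 and 19.5 in DKO and 3.99 to 14.1 in WT. It had no test, and 3 reads correspond to 2.19 to 4.50 normalized counts, so the VAV values lie near the limit of detection.

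Proximal kinases and adaptors were mixed. Lck, the kinase that CD4 and CD8 carry, read 411, 271 and 234 in WT, 218, 340, 339 and 133 in VAV, 300, 417, 364 and 402 in CDK8KO, 280, 234, 249 and 331 in CDK19KO and 194, 377, 409 and 433 in DKO (chr4:129548344-129573641). Its groups overlapped widely, and DKO replicate 4 was the highest library. Zap70, the kinase recruited to the phosphorylated receptor, read 56.7, 22.6 and 33.2 in WT, 31.2, 30.6, 51.4 and 26.9 in VAV, 33.7, 16.2, 53.6 and 43.7 in CDK8KO, 24.4, 37.4, 31.8 and 29.8 in CDK19KO and 36.5, 71.8, 93.7 and 127 in DKO (chr1:36761798-36782818). DKO replicates 2 to 4 exceeded all other libraries, and DKO replicate 1 did not. Txk, a kinase of the Tec family, read 134, 75.8 and 143 in WT, 71.3, 60.5, 118 and 61.3 in VAV, 87, 124, 193 and 93.4 in CDK8KO, 120, 107, 116 and 95.3 in CDK19KO and 68.1, 132, 187 and 147 in DKO (chr5:72695978-72752777). CDK8KO replicate 3 was the highest library for Txk. Ubash3a, a phosphatase that dampens receptor signalling, read 631, 523 and 653 in WT, 669, 723, 588 and 638 in VAV, 505, 414, 548 and 675 in CDK8KO, 506, 605, 466 and 474 in CDK19KO and 572, 683, 545 and 1025 in DKO (chr17:31207873-31246892). Only DKO replicate 4 left the range of the other libraries, and DKO replicates 1 to 3 lay inside it. The adaptor Lat ranged from 113 to 280 in DKO and 78.6 to 350 elsewhere. Themis, which is needed for thymocyte selection, read 63.1, 191, 292 and 210 in DKO and 43.7, 70, 79.3 and 49.5 in VAV. Skap1, an adaptor for integrin activation, read 60.6, 168, 209 and 181 in DKO and 71.3, 72.2, 109 and 57.9 in VAV. Both genes had 3 DKO libraries above all VAV libraries and replicate 1 among them. Themis stood at 58.5 to 178 in WT, 25 to 159 in CDK8KO and 67.1 to 130 in CDK19KO. For Skap1 these ranges were 75.8 to 149, 58.7 to 131 and 84.1 to 143.

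**Figure D3:**
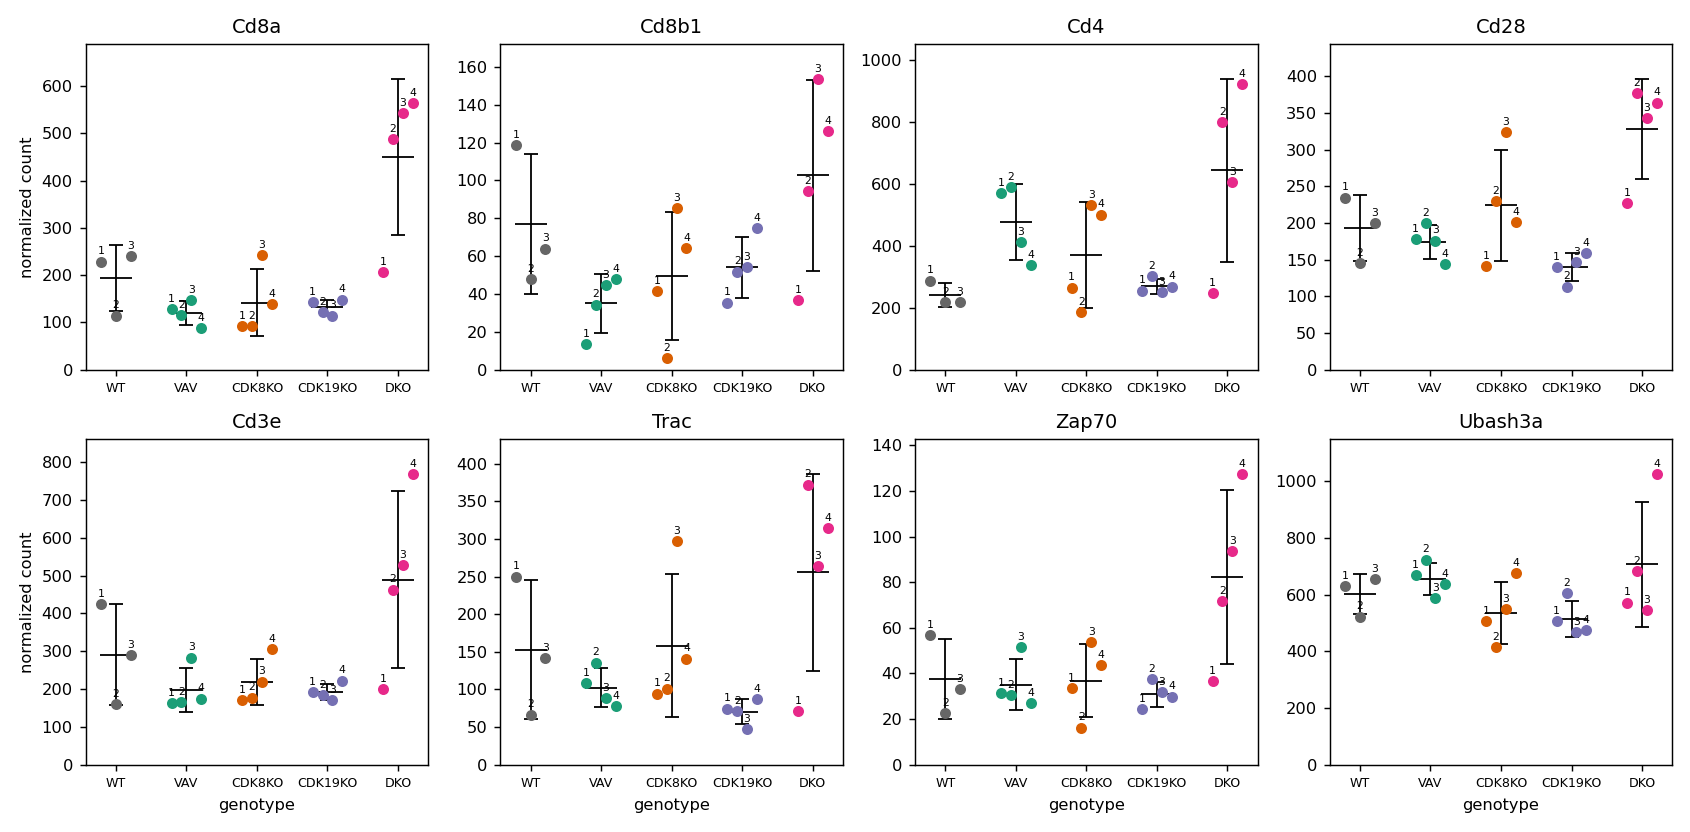
Normalized counts (vertical axes, from 0) of 8 T cell genes by genotype. Each point is a library with its replicate number, the long bar is the mean and the error bar the SD. For Cd8a and Cd28 all 4 DKO libraries lie above all VAV libraries, and for Cd8b1, Cd4, Cd3e, Trac and Zap70 DKO replicate 1 lies within the VAV range or below it.

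Of 3 transcription factors of the lineage, Bcl11b and Tcf7 had the order of the receptor genes in DKO, with replicate 1 lowest, and Lef1 did not. Bcl11b, which commits progenitors to the T lineage, read 155, 79.8 and 105 in WT, 66.9, 72.2, 96.7 and 51.2 in VAV, 75, 69.9, 175 and 109 in CDK8KO, 93.9, 74.8, 83.3 and 97.6 in CDK19KO and 86.3, 152, 176 and 223 in DKO (chr12:107910403-108003602). DKO replicate 4 was highest and DKO replicate 1 lay inside the VAV range. Tcf7, which encodes TCF-1, read 195, 392, 556 and 514 in DKO and 216, 282, 268 and 164 in VAV. Tcf7 stood at 153 to 430 in WT, 163 to 323 in CDK8KO and 176 to 239 in CDK19KO, so WT overlapped DKO replicate 2. Lef1, its relative, is also expressed in B cell precursors and read 805, 481, 1310 and 1715 in DKO and 371, 696, 789 and 540 in VAV. Lef1 broke the order of the DKO libraries: replicate 2, which had the lowest B cell sum, was lowest. DKO replicate 1 lay above every VAV library but inside the range of each other genotype. Those ranges were 596 to 847 in WT, 486 to 868 in CDK8KO and 641 to 941 in CDK19KO. Of the remaining members, Ccr7, a homing receptor that B cells share, read 83.8, 60.6, 179 and 171 in DKO, again lowest in replicate 2. Il2rb (218 to 538 in DKO, 205 to 411 elsewhere) is an interleukin receptor chain shared with NK cells, and the chemokine gene Ccl5 (38.2 to 120 and 33.0 to 112) is expressed by cytotoxic T and NK cells. Thy1, a surface marker of mouse T cells, read 131, 388, 359 and 468 in DKO and 159, 171, 201 and 149 in VAV. Thy1 stood at 143 to 334 in WT, 110 to 220 in CDK8KO and 145 to 190 in CDK19KO.

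Tests were made with limma over all 13976 genes, with Benjamini-Hochberg adjustment, and fold changes are on the log2(normalized count + 1) scale with the SE. In DKO against VAV, where both kinase genes are targeted, Cd8a rose by 1.83 ± 0.34 (adjusted p = 0.00753). It was the 1 member of 30 that passed at 0.05. Of all genes tested, 1.52% passed in this comparison in either direction, and 0.83% passed as higher. Cd28 (0.89 ± 0.23, adjusted p = 0.062) and Cd3e (1.20 ± 0.34, adjusted p = 0.1) came next and did not pass. By direction, 29 members had higher estimates in DKO and 1, Cd27, a lower one (-0.09), and 15 had an unadjusted p under 0.05. Over all 13976 genes tested, 6820 estimates were higher and 2200 genes had an unadjusted p under 0.05. The median of the 30 estimates was 0.75, against -0.01 over all genes tested. Every DKO library exceeded every VAV library for 2 members, Cd8a and Cd28, and for 4.16% of all genes. DKO replicates 2 to 4 all exceeded every VAV library for 20 members, and for 6.44% of all genes. Replicate 1 was set aside after its low values for these members were seen, which favoured the count of 20. The 6.44% had no such choice behind it, so the 2 are not like measures.

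DKO replicate 1 decided the number of calls. It was singled out because these same members were low in it, so fits without it, here and below, are not separate support. No such choice was made for the share of all genes. Without this library, 7 members passed against VAV, all higher, beside 0.773% of all genes. These were Cd8a (2.17, adjusted p = 0.0013), Cd3e (1.58), Cd28 (1.06), Bcl11b (1.36), Trbc2 (1.31), Thy1 (1.25) and Skap1 (1.29), and all 30 estimates were then above 0, with a median of 1.04. Leaving out CDK8KO replicate 1 or CDK8KO replicate 3, which enter only the shared estimate of spread, gave 2 calls, Cd8a and Cd28. With WT in place of VAV, no member passed in limma, and Cd8a stood at 1.18 (adjusted p = 0.104). DESeq2 on the recovered reads called 5 members against VAV (Cd3e, Cd8a, Cd28, Bcl11b and Themis), and edgeR called 1. The shares of all genes that DESeq2 and edgeR called are not given here.

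**Figure D4:**
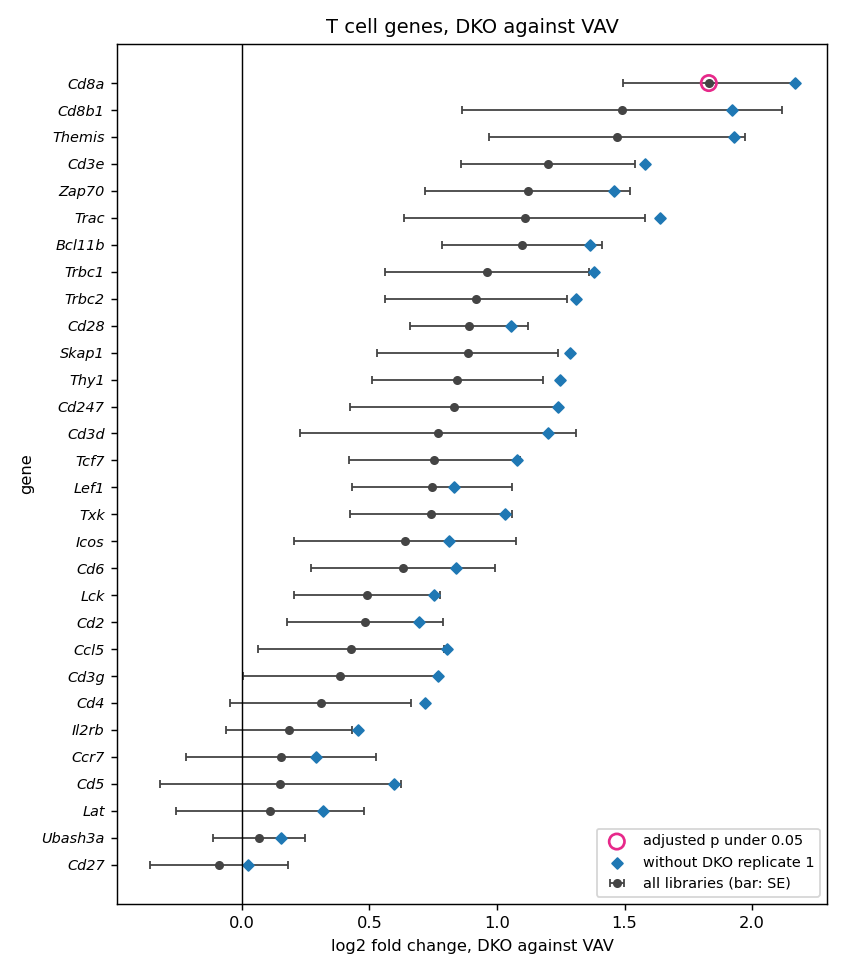
Log2 fold change of each tested T cell gene in DKO against VAV (horizontal axis), sorted by size. Circles are estimates from all libraries with bars for the SE, the ring marks the gene with an adjusted p under 0.05, and diamonds are estimates without DKO replicate 1. Cd8a is ringed at 1.83, and all 30 diamonds lie right of 0. The library left out was the lowest of its genotype for 26 of the 30 genes, so the diamonds are not separate support.

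In relation to CDK8KO, DKO adds the loss of Cdk19. Cd8a rose by 1.68 ± 0.34 (adjusted p = 0.0148), the 1 member that passed, beside 1.7% of all genes. The next members were Cd3e (1.05 ± 0.34, adjusted p = 0.13) and Zap70 (1.13 ± 0.40, adjusted p = 0.165). Estimates were higher for 26 members and lower for 4, with a median of 0.59, and no member had every DKO library above every CDK8KO library, against 3.63% of all genes. The Cd8a call was lost by small margins when CDK8KO replicate 1 (adjusted p = 0.0516) or DKO replicate 2 (0.0501), 3 (0.0516) or 4 (0.0612) was left out, and also without the 2 muscle-rich libraries (0.0775). It was lost as well when the fit held only the 2 groups compared (adjusted p = 0.125).

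In relation to CDK19KO, DKO adds the deletion of Cdk8 and the Cre transgene. Cd28 rose by 1.21 ± 0.23 (adjusted p = 0.00832) and Cd8a by 1.67 ± 0.34 (adjusted p = 0.0138), the 2 members that passed, beside 2% of all genes. Cd3e followed at 1.20 ± 0.34 (adjusted p = 0.0807). Estimates were higher for 29 members and lower for 1, Ccr7 (-0.28), with a median of 0.68. Cd8a, Cd28, Cd6 and Icos had every DKO library above every CDK19KO library, as did 7.27% of all genes. Without the 2 muscle-rich libraries neither gene passed (Cd28 adjusted p = 0.0561, Cd8a 0.0961), and without DKO replicate 2 Cd8a did not (0.0507). Without DKO replicate 1, 8 members passed: Cd8a, Cd28, Cd3e, Cd4, Zap70, Trac, Trbc2 and Thy1. The share of all genes that passed in that fit is not given here. The 3 comparisons share the DKO libraries, so their values are not independent of one another.

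The interaction asked whether the step from CDK8KO to DKO differed from the step from WT to CDK19KO. Both groups of the first pair carried Cre and neither of the second did. Cd8a had the smallest p, with a difference of 2.17 ± 0.50 (adjusted p = 0.11), followed by Cd3e (1.54 ± 0.50, adjusted p = 0.384) and Cd28 (1.03 ± 0.34, adjusted p = 0.389). No member passed in limma or edgeR, while 0.15% of all genes passed in limma. An unadjusted p under 0.05 was found for 10 members and for 1208 of all 13976 genes. Estimates were above 0 for 27 members and below for 3, with a median of 0.65. Cd8a passed without DKO replicate 1 (2.51, adjusted p = 0.0257), without CDK8KO replicate 3 (2.47, adjusted p = 0.0339) and in DESeq2.

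Neither single knockout gave a call among the T cell genes. In CDK8KO against VAV, limma, edgeR and DESeq2 each called 0 of 30 members, and 0% of all genes passed in limma. An unadjusted p under 0.05 was found for 1 member and for 1161 of all 13976 genes. The smallest p-values among the members were those of Lck (0.61 ± 0.29, adjusted p = 0.586), Txk (0.65 ± 0.32, adjusted p = 0.586) and Ubash3a (-0.31 ± 0.18, adjusted p = 0.609). The median was 0.15, with 22 members higher and 8 lower, and became -0.05 without CDK8KO replicate 3. In CDK19KO against WT, all 3 tools again called 0 members, and 0.0215% of all genes passed in limma. No member had an unadjusted p under 0.05, beside 429 of all 13976 genes. Of the members, Icos (-0.98 ± 0.47), Trac (-0.95 ± 0.51) and Cd28 (-0.45 ± 0.25) had the smallest p-values, each with an adjusted p of 1. The median was -0.20, with 6 members higher and 24 lower, and moved to 0.02 without WT replicate 1.

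Between the controls, no member passed in VAV against WT, where 0.093% of all genes did. All 3 tools called 0 members, and 2 had an unadjusted p under 0.05, beside 2068 of all 13976 genes. Cd27 was 0.79 ± 0.29 higher (adjusted p = 0.227), Cd4 0.95 ± 0.38 higher (adjusted p = 0.26) and Bcl11b lower (-0.63 ± 0.34, adjusted p = 0.394), none of them past the threshold. The median was -0.29, with 6 members higher and 24 lower, and moved to -0.03 without WT replicate 1. Over all genes, 6877 estimates were higher and 7098 lower. All 6 defining genes had lower estimates in VAV. Every VAV library lay above every WT library for Cd4 and Cd27 (6.93% of all genes) and narrowly below for Cd8b1 (5.47%). Every DKO library lay above every WT library for 1 member, Cd27, beside 9.34% of all genes.

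Other genes of T cell biology were mixed in DKO against VAV, and the counts that passed are to be read beside the 0.83% of all genes that passed as higher and the 1.52% that passed in either direction. Of 23 tested genes of receptor signalling outside the set, 2 rose and none fell: Plcg1, the phospholipase downstream of LAT (0.99 ± 0.24, adjusted p = 0.0458), and Nfatc2, a calcium-controlled transcription factor (0.72 ± 0.16, adjusted p = 0.0305). Their list had a median of 0.17, and marrow myeloid cells express many of its genes, such as Ptprc and Lcp2. Plcg1 read 523, 454, 954 and 1223 in DKO and 301 to 454 in VAV. WT stood at 530 to 714 for Plcg1, above DKO replicates 1 and 2. None of 12 cytotoxic effector genes passed against VAV, with 11 of 12 estimates higher and a median of 0.39. Of these, Cd160, a receptor of cytotoxic and NK cells, rose against CDK19KO (2.02 ± 0.35, adjusted p = 0.00387), at 33.2, 69.3, 86.3 and 108 in DKO and 10.3 to 23.8 in CDK19KO. Among 11 helper lineage and checkpoint genes, Pdcd1, which encodes PD-1, rose (2.31 ± 0.50, adjusted p = 0.0221) and Bcl6, a repressor of follicular helper and B cells, fell (-0.56 ± 0.12, adjusted p = 0.0275). Bcl6 stood at 1725 to 2048 in DKO and 2354 to 3012 in VAV, but WT, at 1921 to 2141, overlapped DKO. Pdcd1 read 17.4, 36.4, 35.8 and 52.5 in DKO and 1.78 to 9.59 in VAV, so DKO replicate 1 was above VAV here as for Cd8a, while WT stood at 22.3, 16 and 25.6. Lag3, another checkpoint receptor, rose against CDK19KO (1.52 ± 0.38, adjusted p = 0.0437). It stood at 88.8 to 190 in DKO and 78.5 to 163 in VAV, which overlapped. The genotypes without Cre were lower, at 28.1 to 86.1 in CDK19KO and 29.4 to 70.5 in WT.

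Of 8 regulatory T cell genes, Ikzf2 rose (0.94 ± 0.19, adjusted p = 0.0155) and Lrrc32, which platelets and vessels also express, fell (-2.11 ± 0.50, adjusted p = 0.0396). Foxp3, the factor that defines the lineage, read 7.47, 15.6, 20 and 51 in DKO and 3.57 to 17.4 in VAV. Of 3 gamma-delta and innate-like genes tested, Sox13 rose (1.67 ± 0.33, adjusted p = 0.013), at 382, 316, 395 and 462 in DKO and 88.9 to 154 in VAV. Trdc, the delta chain constant gene, stood at 47.3 to 109 in DKO and 31.9 to 93.6 in VAV and did not pass. None of 11 trafficking and memory genes passed against VAV, with 6 higher and 5 lower, among them the abundant Cd44. None of 5 thymocyte and recombination genes did either, and Ptcra, the pre-receptor alpha chain of thymocytes, stayed at 13.7 or below in every library. Aqp11 of that list fell against CDK19KO (-1.61 ± 0.37, adjusted p = 0.0276).

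Markers of cells that share T cell genes were mixed. Of 11 NK cell genes, 7 had higher and 4 lower estimates in DKO against VAV, with a median of 0.23, and the 2 that passed fell: Ncr1 (-1.28 ± 0.30, adjusted p = 0.0384) and Klra4 (-2.36 ± 0.38, adjusted p = 0.0024). Ncr1 stood at 19.9 to 67.4 in DKO and 76.4 to 147 in VAV, but WT, at 46.5 to 85.9, overlapped DKO. The summed NK genes were 560, 1025, 1477 and 1296 in DKO and 660 to 1343 in VAV, so DKO replicate 1 was lowest there too. None of 8 B cell genes passed against VAV, and their sum, 12485, 6585, 25057 and 23918 in DKO, placed replicate 2 lowest, unlike the T cell sum. The most abundant of them, Pax5 and Ebf1, which direct the B lineage, averaged 5143 ± 2110 and 3207 ± 825 in VAV (SD, n = 4) and 4402 ± 2237 and 3994 ± 2233 in DKO. Among 9 dendritic cell genes, none passed against VAV, with 5 higher, 4 lower and a median of 0.09, while Ccr9, a chemokine receptor of plasmacytoid dendritic cells and of T cells, rose against CDK19KO (1.37 ± 0.31, adjusted p = 0.025). Ccr9 read 283, 776, 955 and 881 in DKO and 272 to 311 in VAV, the same split as the T cell sum. Siglech, a plasmacytoid marker, read 403, 819, 1026 and 1091 in DKO and 694 to 925 in VAV, while Clec9a and Xcr1, of the dendritic cells that carry CD8 alpha, read 120, 171, 111 and 196 against 59.8 to 157 and 21.6, 34.6, 23.2 and 3 against 13.4 to 33.9. Their part in the Cd8a result was not tested. Il17rb, an interleukin receptor of innate type 2 and other cells, rose in DKO against VAV (1.96 ± 0.25, adjusted p = 0.000308), while Il5, Il13 and Areg, which such cells secrete, were at 3.26 or below in every library. None of 4 plasma cell genes passed against VAV, with Jchain, which joins secreted antibodies, at 1353 to 2972 in VAV and 1909 to 4826 in DKO, and Sdc1 at 134 to 219 and 154 to 297. None of 10 erythroid or 8 skeletal muscle genes did either. No erythroid gene passed against the single knockouts, but all 10 estimates were lower in DKO, with a median of -1.73 against CDK8KO (9 with an unadjusted p under 0.05) and -1.63 against CDK19KO (6 with an unadjusted p under 0.05). Over all 13976 genes, 2253 had an unadjusted p under 0.05 against CDK8KO and 2182 against CDK19KO. The erythroid sum was 25348 in DKO replicate 1 and 49318 to 86879 in DKO replicates 2 to 4, and the muscle sum was 6891 in DKO replicate 4 and 64.1 to 293 in the other DKO libraries. The part of these cells in the T cell result was not tested.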

How the data were processed

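Polyadenylated RNA of flushed marrow was read in pairs of 150 bases, and the submitters' processing notes name Salmon 1.4.0, DESeq2 without a version and mm10, with no roles. The deposited values are a signal that the authors normalized, counts divided by a factor per library: in each library 100% were whole multiples of 1 step within 0.001 read, so whole reads were recovered. Gene positions and exon lengths came from GENCODE vM21 (GRCm38), matched by ID for all 31 members.

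Genes with a mean of at least 10 over the 19 libraries were tested as log2(normalized count + 1) with limma 3.58.1 in R 4.3.3 (trend, all 5 groups, no covariate). P-values were adjusted by Benjamini-Hochberg over 13976 genes within each of 7 comparisons, and a gene passed at 0.05. Alternatives were other pseudocounts, filters and scaling, edgeR 4.0.16 and DESeq2 1.42.0 on recovered reads, a replicate block, other controls and omitted libraries. The method was tested on simulated data. Replicate numbers did not pair samples.

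The members and further lists were chosen with earlier results of these data known. Fold changes are given for members that passed and, where fewer than 3 passed, for those with the smallest p up to 3. From further lists, genes that passed in a comparison are named, or else those with the highest mean, of which 1 is not reported here. Foxp3, Trdc, Ptcra, Siglech, Clec9a and Xcr1 were picked after their values were seen. The Tcrg constant genes are not analysed here.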

Additional observations from a re-analysis of the deposited data

Results flagged for a closer look

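In 5 of 124 tests of a member in a genotype with 4 libraries, 1 library stood far from the other 3. Chance flags about 1 in 20 such groups. They were Cd3d in CDK8KO replicate 3 (172.9 normalized counts, the others 37.0 to 52.4), Cd3e in VAV replicate 3 (283, the others 163 to 175), Trbc1 in VAV replicate 2 (65.6, the others 36.6 to 37.8), Icos in DKO replicate 2 (113, the others 27.4 to 40.5) and Il2rb in CDK19KO replicate 1 (366, the others 302 to 305). Each was the highest of its group, and no library appeared more than 1 time. DKO replicate 1, lowest of its genotype for 26 members, was not among them.

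Il17rb was the 1 gene of the T cell and marker lists for which the step from CDK8KO to DKO differed from the step from WT to CDK19KO, by 1.92 ± 0.37 on the log2 scale (limma adjusted p = 0.0441). It read 199, 131, 274 and 243 normalized counts in DKO and between 37.4 and 90.8 in the other 15 libraries.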

How the results depend on the processing

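No result changed direction past its threshold in 33 alternative settings. The median over the members, in each knockout set against its control, moved by less than the spread between replicates in all 96 values. That spread, 0.42 for CDK8KO and 0.33 for CDK19KO, was larger than their medians, 0.15 and -0.20, so this rule could miss a change of sign. Over the settings the CDK8KO median ran from -0.07 to 0.44 and the CDK19KO median from -0.48 to 0.06, both crossing 0. The DKO median ran from 0.48 to 1.04, beside a spread of 0.53. Members passing in DKO against VAV numbered 1, and 5 with DESeq2, 3 without the 2 erythroid-rich libraries, 0 with the WT libraries as control, 2 with both control genotypes pooled, and 1 to 7 when 1 library was left out. For DKO against CDK8KO the number was 1, and 2 with DESeq2, 0 with only the groups compared, 0 without the 2 muscle-rich libraries and 0 to 3 with 1 library left out. For DKO against CDK19KO it was 2, and 9 with DESeq2, 0 without the muscle-rich libraries, 5 without the erythroid-rich libraries and 1 to 8 with 1 library left out. For the interaction it was 0, and 1 with DESeq2 and 0 to 1 with 1 library left out. The cause was not tested. Apart from the fit against VAV without DKO replicate 1, the share of all genes that passed in each alternative setting is not given here. From the member counts printed here alone, a setting that called more genes of any kind cannot be told from one that called more T cell genes. Among the fits with 1 library left out of the comparisons of DKO with VAV, CDK8KO and CDK19KO, the one without DKO replicate 1 gave the highest number.

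Libraries with the same replicate number did not deviate together: 6 of 36 pairs had a correlation over 0.1, in a range from -0.27 to 0.31. With a replicate block, 1, 1 and 2 members passed against VAV, CDK8KO and CDK19KO, as without it. The low counts of members such as Ctla4 and Cd5 limit what these depths can show.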
